A study of Mus musculus with 8 samples.

Results

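Adipocyte precursors (APs) are skin mesenchymal cells with the capacity to become fat cells, and their contractile machinery was examined here through 53 named genes for actins, myosins and the proteins that bind, bundle or regulate them. The genes were taken by name from the gene column of a table of 34535 transcript isoforms and 24356 gene symbols, and 50 of the 53 had at least 1 entry there, with 94 isoforms between them. The names Diaph1, Diaph2 and Diaph3 had none. By transcript accession these 3 formin genes stand in the table under the older symbols Diap1, which is itself one of the 53, Diap2 and Diap3.

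The APs were sorted by flow cytometry from the dermis of male C57/Bl6 mice that were 7 weeks old, with 6 samples from nonwounded dorsal skin and 2 samples from the wound bed at day 5. The labels name no transgene, genotype or drug, and they state neither the sort markers nor whether each sample came from its own animal. The authors' p-values come from Cuffdiff and rest on these samples, with 2 in the wound bed, and the spread between samples may be technical. The authors deposited a single FPKM per isoform and group (a fragment count scaled to transcript length and to sequencing depth), so no value per sample, no SD and no depth can be given, and overlap between samples could not be counted. Of the 94 isoforms, 70 were tested by the authors and 24 were not, none carried a failed or overloaded status, and 8 were listed at 0 in at least 1 group.

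Contraction outside muscle rests on actin filaments that are pulled past each other by bipolar filaments of non-muscle myosin II. Phosphorylation of the regulatory light chain by myosin light chain kinase and other kinases switches the motor on, and myosin phosphatase switches it off. Tropomyosins, calponins and caldesmon line the filaments, alpha-actinins and filamins tie them into bundles and nets, and in healing skin mesenchymal cells are known to build stress fibres that hold smooth muscle actin and to close the wound by traction. Many genes of this machinery are targets of serum response factor and its actin-sensing cofactors.

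Precursor markers were detected in both groups, and part of them were called lower in the wound bed. Of 9 such genes 3 had an isoform called lower and 0 one called higher. Over all genes with a tested isoform, to be read beside every marker list, 9.16% had one called lower and 7.21% one called higher. The list had a summed FPKM of 2635 against 4250 (here and below, wound bed first), most of it from Ly6a and Cd34. Dpp4, a surface peptidase gene, summed to 72.7 against 220, Cd24a, a surface gene of early precursors, stood at 9.38 against 24.9, and Ly6a, a surface gene often used to sort such cells, summed to 1576 against 2691 with 2 of 5 isoforms called lower. Pdgfra, a receptor gene of these cells, summed to 91.8 against 80.9 and Cd34 to 679 against 1104, neither with a call. Itgb1, also on the list, was higher in the wound bed at 197 against 117 and not called. Fewer cells of a type and less RNA per cell cannot be told apart in bulk RNA. The part of these markers in the results that follow was not tested.

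Markers of other cells were also present. Of 15 tested macrophage and monocyte genes 11 were called higher and 0 lower, with a summed FPKM of 1060 against 344. The pan-leukocyte gene Ptprc stood at 5.68 against 0.806 without a call. Cd163 at 1.55 against 6.19 and Aif1 at 7.80 against 12.2 stood the other way, neither of them called. Macrophages also make actin, cofilin, vimentin and non-muscle myosin. Of 16 vascular smooth muscle and pericyte genes 7 had a tested isoform, of which 2 were called higher and 1 lower. The calls were Ndufa4l2 at 81.9 against 16.0, Rgs4 at 5.36 against 0.826 and Kcnj8 at 14.9 against 58.3, so the list's summed FPKM of 162 against 115 joins genes of opposite direction. Pdgfrb at 41.4 against 27.9 and Abcc9 at 13.7 against 8.34 were expressed above the floor in both groups and not called. The other genes of that list were near the floor. Among them were Rgs5 at 1.45 against 0.709, Mcam at 1.38 against 1.17 and Notch3 at 0.681 against 0.230. Cspg4 stood at 0.489 against 0.329, and Myocd, the smooth muscle cofactor, was listed at 0 against 0.00655. Skeletal muscle markers had 0 of 10 tested genes called higher and 2 lower, and summed to 11.3 against 146. Those called were Mylpf at 1.23 against 31.8 and Myl1 at a sum of 0.945 against 21.4. Acta1 stood at 1.99 against 21.7 without a call. Endothelial markers summed to 41.7 against 108 with 1 of 8 tested genes called lower, which was Tek at a sum of 18.4 against 83.1, while Pecam1 stood at 2.08 against 1.54. Of 8 tested keratinocyte genes 2 were called higher, Krt14 at 10.9 against 3.45 and Krt1 at 4.71 against 0.298, while Krt15 at 1.24 against 3.73 and Perp at 3.90 against 7.34 were not called, and the list summed to 38.1 against 27.5. The part of these cells in the results that follow was not tested.

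The question put by the design is whether wounding changes the contractile transcripts of APs by day 5. Of the 45 genes with a tested isoform 20 were called higher in the wound bed, 2 were called lower and the others were not called. Isoforms of Actn1, Tpm2, Acta2, Synpo and Tagln rose most, those of Myh9, Tagln2, Palld and Pdlim5 rose by less, and those of Myl9 and Cfl2 fell. A call here is a Benjamini-Hochberg adjusted p under 0.05, computed over all 17775 tested isoforms from the Cuffdiff p-values that the authors' deposited table holds. Of 70 tested isoforms of the set, 20 were called higher (28.6%) and 2 lower (2.86%), against a background of 5.66% higher and 7.25% lower over all tested isoforms. Because more abundant isoforms are called more often, the same shares were taken for isoforms that reached an FPKM of 10 in either group. There 18 of 43 isoforms were higher (41.9%) and 2 lower (4.65%), against 11.9% and 10.8% of all isoforms at that level. By gene, these calls came to 44.4% higher and 4.44% lower, against 7.21% and 9.16% of all genes. Of the 22 calls, 11 had an adjusted p = 0.000882, the lowest reached with the p-values of the authors, and the other 11 are given with their groups. At this threshold no gene had isoforms called in opposite directions. The genes had been chosen with earlier results of these data known, so these shares describe the set and are no independent evidence of its direction.

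**Figure D1:**
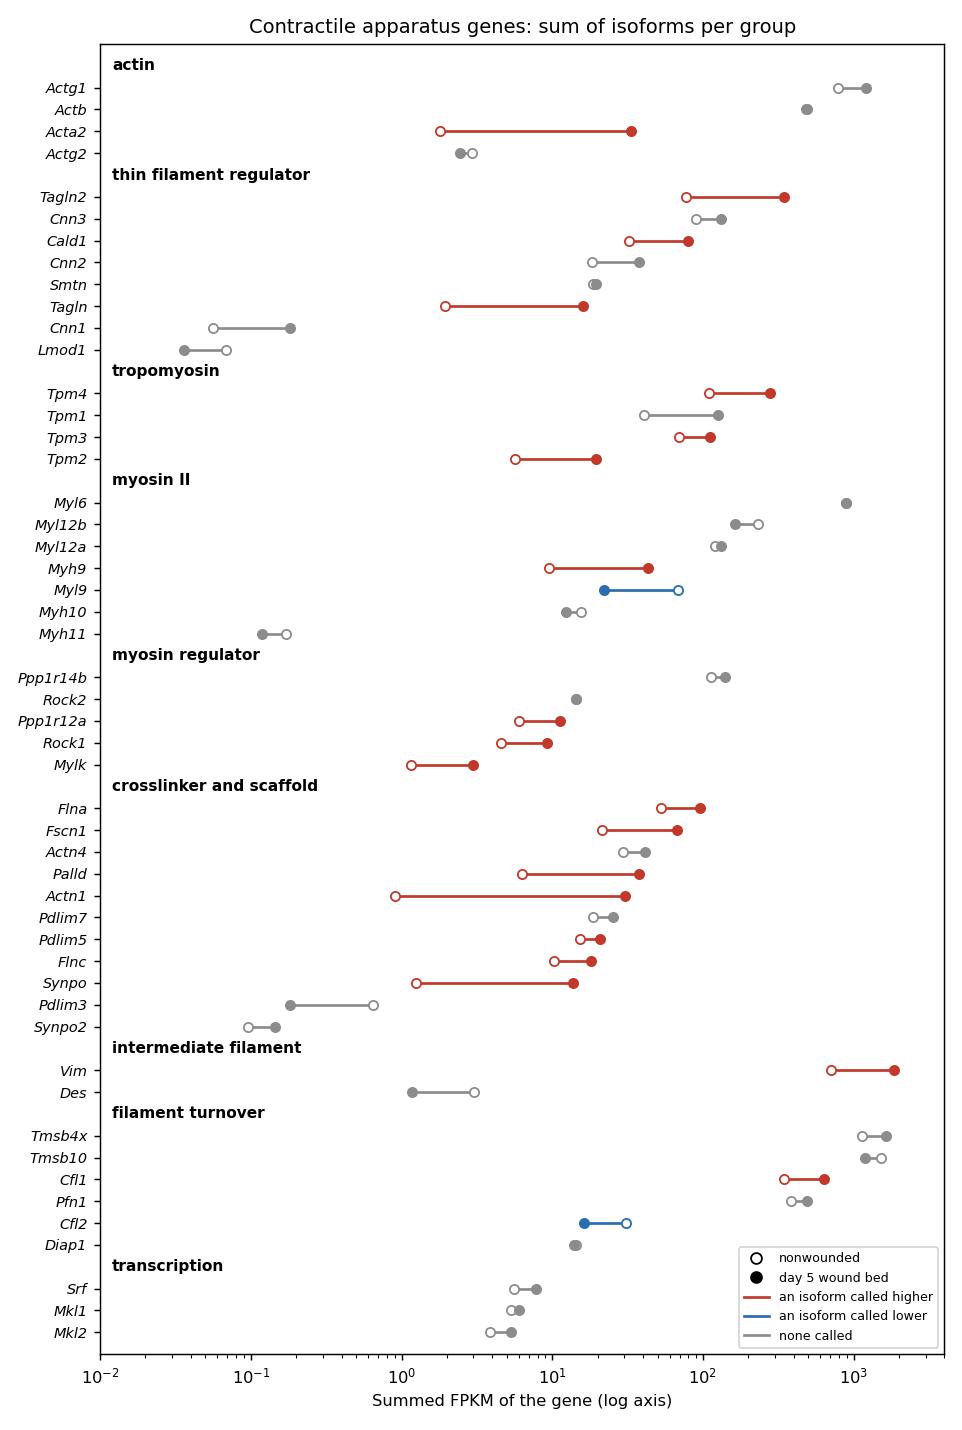
Summed FPKM of each gene (horizontal log axis) in nonwounded skin (open points) and the day 5 wound bed (filled points), grouped by role, 1 row per gene, red where an isoform was called higher, blue where one was called lower and grey where none was called. Acta2 runs from 1.81 to 33.4 and Actn1 from 0.902 to 30.3, while Actb stands at 483 and 487 and Myl9 moves down from 68.4 to 22.2.

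Sums over the isoforms of each gene gave the same picture without a test, since the table holds no p-value for a sum. Of 45 genes whose sum reached 1 in either group, 35 were above 0 on the log2 scale of wound bed over nonwounded (77.8%), against 41.5% of 12621 genes in all. The median was 0.55, beside -0.16 for all genes. A sum at least 1 higher on this scale was seen in 16 genes (35.6%, against 11.9% of all), and a sum at least 1 lower in 2, Myl9 and Des (4.44%, against 15.4% of all). The 53 names together held 2.28% of all usable FPKM in the wound bed against 1.56% in nonwounded skin. The remaining 5 genes, all without a tested isoform, stayed below 1 in both groups. They were Cnn1, Lmod1, Myh11, Synpo2 and Pdlim3, which are best known from differentiated smooth or striated muscle.

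**Figure D2:**
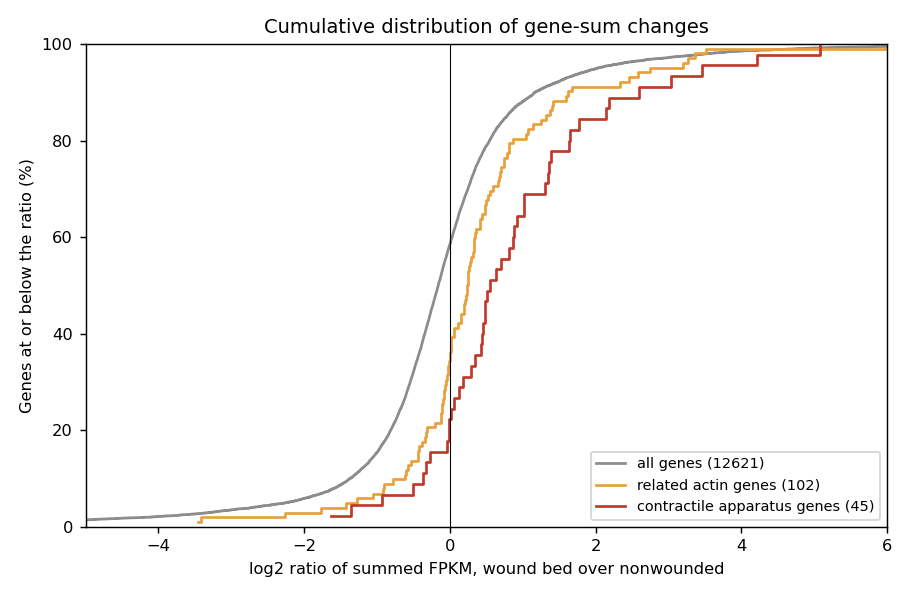
Cumulative share of genes (vertical axis, percent) against the log2 ratio of summed FPKM in the wound bed over nonwounded skin (horizontal axis), for genes whose sum reached 1 in either group: the 45 contractile genes (red), 102 related actin genes (orange) and all 12621 genes (grey). The red curve lies to the right of the grey one, with medians of 0.55 and -0.16; ratios beyond the axis are not drawn.

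Among the 4 actin genes only the smooth muscle isotype of contractile fibroblasts was called. Acta2, placed by the table on chromosome 19 between 34240336 and 34255373 (a build that the submitters' notes call mm9, though 93.3% of 18542 loci had an edge within 100 bases of the GRCm38 gene), reached an FPKM of 33.4 in the wound bed against 1.81 in nonwounded skin, an 18.5-fold difference (log2 4.21) with the lowest adjusted p. The cytoplasmic isotypes remained far more abundant. Actg1, the gamma-actin gene, stood at 1215 against 783 (log2 0.64) and Actb, the beta-actin gene, at 487 against 483 (0.01), neither of them called. Actg2, the smooth muscle gamma isotype of gut and other viscera, stood at 2.44 against 2.94. Acta2 thus made up 1.92% of the FPKM of the 4 genes in the wound bed against 0.142% in nonwounded skin, and Actg1 69.9% and 61.6%. Cytoplasmic actins have many processed copies in the genome, and how reads shared with them were assigned is not given in the sources used here, which leaves those levels uncertain.

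Serum response factor binds the CArG box, and neither its own gene nor those of its actin-sensing cofactors were called. Srf stood at an FPKM of 7.77 against 5.57 (log2 0.48), and the sums of Mkl1 and Mkl2, the genes of the myocardin-related cofactors that are held inactive by free actin, at 6.06 against 5.33 (0.19) and 5.31 against 3.87 (0.46). The partner genes Elk3 and Elk4, whose ETS proteins bind beside the factor, were called higher, at 9.64 against 3.11 (1.63) and 6.68 against 2.54 (1.40), and Elk1 stood at 6.69 against 6.81 without a call. Promoter windows of 300 bases, from 250 before to 50 after a gene's start, were taken from RefSeq (GRCm38.p6) for 43 of the 50 genes and searched on both strands for the CArG box, which is 2 Cs, 6 letters that are all A or T, and 2 Gs, and for a variant with 1 G or C among the 6. Of 55 windows 5 held a CArG box (9.09%), against 1.63% of 32851 windows in all, and 13 held a box or a variant (23.6%, against 9.98%). The 5 belonged to Actg1, Cnn2, Myl6, Myl9 and Srf. Of the 17 genes called higher that had a window, 0 held the box and 3 held a variant, which were Acta2, Tpm3 and Flnc. With 1.63% of all windows holding the box and 9.98% a box or variant, 17 genes are too few to read these counts. Sites outside the windows were not searched. Tagln, Synpo and Rock1, also called higher, and Actb, Actg2, Myh11 and Diap1 were not searched here. A match in letters is a description and does not show binding. Shown here, as those of the called actin gene, of the most abundant actin gene and of the factor itself, are the windows of Acta2 (chr19:34255324-34255623, minus strand), Actg1 (chr11:120348446-120348745, minus strand) and Srf (chr17:46556113-46556412, minus strand), 5′ to 3′ along the gene, with the box or variant in capitals.
Acta2: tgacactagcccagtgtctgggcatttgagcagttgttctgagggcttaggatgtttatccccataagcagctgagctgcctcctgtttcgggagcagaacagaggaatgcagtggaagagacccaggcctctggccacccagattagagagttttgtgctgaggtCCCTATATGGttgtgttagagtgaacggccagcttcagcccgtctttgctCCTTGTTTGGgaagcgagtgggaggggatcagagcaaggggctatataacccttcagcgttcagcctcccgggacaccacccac
Actg1: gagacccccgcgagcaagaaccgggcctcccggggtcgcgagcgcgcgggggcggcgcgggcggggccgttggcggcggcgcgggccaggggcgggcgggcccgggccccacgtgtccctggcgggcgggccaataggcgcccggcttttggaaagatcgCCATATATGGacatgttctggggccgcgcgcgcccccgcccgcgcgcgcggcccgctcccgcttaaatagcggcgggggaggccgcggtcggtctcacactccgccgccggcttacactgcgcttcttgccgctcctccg
Srf: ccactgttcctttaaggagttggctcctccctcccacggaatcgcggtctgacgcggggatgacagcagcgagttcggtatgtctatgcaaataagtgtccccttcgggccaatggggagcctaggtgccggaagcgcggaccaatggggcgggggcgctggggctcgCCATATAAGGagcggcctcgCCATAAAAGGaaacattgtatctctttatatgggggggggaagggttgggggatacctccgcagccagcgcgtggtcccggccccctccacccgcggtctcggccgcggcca
The matches of Acta2 begin 84 and 34 bases before the start and are both variants. That of Actg1 begins 90 bases before it, and those of Srf 82 and 62 bases before it, all 3 being full boxes.

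Genes for proteins that coat or stabilise the thin filament were higher or not called. Of 6 with a tested isoform 3 were called higher and 0 lower. Tagln, the gene of transgelin, an early smooth muscle and myofibroblast protein, stood at 15.9 against 1.94 (log2 3.03). Tagln2, its broadly expressed relative, was the more abundant and rose from 77.3 to 343 (2.15). Cald1, which encodes caldesmon, a protein that restrains myosin on actin, rose from 32.4 to 79.7 (1.30). By p-values of the authors' deposited table, Tagln had an adjusted p = 0.00663, and Tagln2 and Cald1 had the lowest value. The calponins were not called. Cnn2 stood at 37.5 against 18.5 (1.02) and Cnn3 at 132 against 89.8 (0.55), while the smooth muscle calponin gene Cnn1 was at 0.183 against 0.0558. Smtn, the smoothelin gene of contractile smooth muscle, summed to 19.4 against 18.7 (0.06), and Lmod1, a leiomodin gene that nucleates smooth muscle thin filaments, to 0.0359 against 0.0688. The loci of Tagln, Cnn1 and Cnn2 in the table are read-assignment bundles 11.3, 33.4 and 98.9 times as long as the gene itself, and span neighbouring genes.

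Tropomyosins lie along the groove of the filament and decide which motors and severing proteins may bind it. All 4 genes had higher sums in the wound bed, and their joint FPKM was 535 against 224 in nonwounded skin. Of 19 tested isoforms 3 were called higher and 0 lower. Tpm4, the most abundant member, stood at 277 against 109 (log2 1.35). The main isoform of Tpm3 rose from 58.9 to 106 (0.85), and the gene's sum was 112 against 69.1. For Tpm2 a single isoform carried the call, at 16.0 against 0.749 (4.42), while the other isoforms stood at 2.69 against 2.67 and 0.722 against 2.26 and the sum gave 1.77. Tpm1 had no called isoform among 9 tested, yet its sum was 126 against 40.6 (1.64), divided over 10 isoforms. By p-values of the authors' deposited table, the call of Tpm2 had an adjusted p = 0.0408 and that of Tpm3 one of 0.0157, and Tpm4 had the lowest value.

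Tropomyosin genes make long forms, which include those of muscle, and short forms, and length alone does not place a form in or outside stress fibres. Coding lengths from the GENCODE transcripts matched by accession separated 11 long forms of 281 to 285 residues from 9 short forms of 245 to 248. Long forms summed to 82.5 in the wound bed against 36.4 in nonwounded skin, and short forms to 452 and 188. The long share was 15.4% and 16.2%, and the sums of the long and short classes differed between the groups by factors of 2.26 and 2.41. Within Tpm1 the balance differed, with long forms at 62.1 against 27.3 and short forms at 64.3 against 13.3, which put the long share at 49.1% in the wound bed against 67.1% in nonwounded skin. The main short Tpm1 isoform stood at 54.9 against 8.95 (2.62) and the main long one at 49.3 against 20.8 (1.24). By the authors' p-values neither was called, with an adjusted p = 0.153 and 0.0866. The split between them was not tested.

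**Figure D3:**
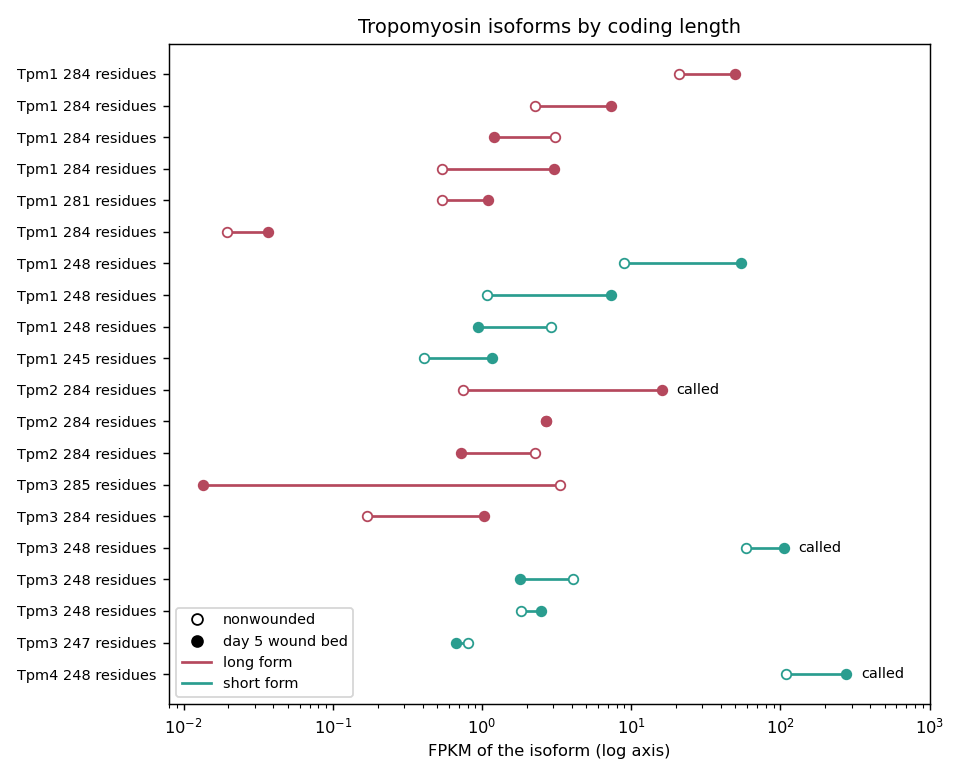
FPKM of each tropomyosin isoform (horizontal log axis) in nonwounded skin (open points) and the day 5 wound bed (filled points), 1 row per isoform with its gene and coding length, long forms in red and short forms in green; the 3 isoforms called higher are marked. Tpm4 (277 against 109), the main Tpm3 isoform (106 against 58.9) and 1 Tpm2 isoform (16.0 against 0.749) carry the calls, while no Tpm1 isoform does.

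Of the myosin II genes the heavy chain gene Myh9 rose and the light chain gene Myl9 fell, and the other 4 tested genes were not called. Myh9, the heavy chain of non-muscle myosin IIA, rose from 9.54 to 43.3 (log2 2.18), and Myh10, that of myosin IIB, stood at 12.4 against 15.6 (-0.33) without a call. Myh9 therefore held 77.6% of the heavy chain FPKM in the wound bed against 37.6% in nonwounded skin, and the order of the paralogues was reversed, with 3.49 Myh9 to 1 Myh10 against 0.610. The smooth muscle heavy chain Myh11 was at 0.119 against 0.170. Myl9, the regulatory light chain gene of smooth muscle and myofibroblasts, fell from 68.4 to 22.2 (-1.63). Its non-muscle relatives Myl12a and Myl12b, near-identical in sequence so that reads between them are hard to assign, stood at 132 against 121 (0.13) and 162 against 231 (-0.51), and the share of Myl9 among the 3 was 7.01% against 16.3%. Myl6, the essential light chain, was at 884 against 893 (-0.01). Both calls of this group were at the lowest adjusted p.

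The promoter of Myl9 is printed because this gene, which fell, is one of the 5 with a full CArG box in its window (chr2:156775214-156775513, plus strand), with the box and a variant in capitals, beginning 161 and 99 bases before the start.
Myl9: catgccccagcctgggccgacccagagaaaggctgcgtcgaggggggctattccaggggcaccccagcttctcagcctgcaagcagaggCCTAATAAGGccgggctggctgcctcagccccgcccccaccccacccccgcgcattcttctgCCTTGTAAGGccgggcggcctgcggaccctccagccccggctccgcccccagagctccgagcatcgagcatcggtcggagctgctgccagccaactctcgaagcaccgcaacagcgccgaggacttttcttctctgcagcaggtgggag
Acta2 and Myl9 are both known targets of serum response factor and moved in opposite directions here, by 4.21 and -1.63 on the log2 scale. The activity of the factor was not measured, and its part in either change was not tested.

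Regulators of the motor were higher or not called, with 3 of 5 genes called higher and 0 lower, although at low levels. Mylk, the myosin light chain kinase gene, stood at 2.99 against 1.16 (log2 1.36), Rock1, a kinase gene that acts on the light chain and its phosphatase, at 9.21 against 4.54 (1.02), and Ppp1r12a, the targeting subunit of the phosphatase that opposes both kinases, at 11.3 against 5.99 (0.92). Rock2 stood at 14.3 against 14.4 and Ppp1r14b, a phosphatase inhibitor gene, at 139 against 113 (0.29), and neither was called. With the p-values of the authors, Mylk had an adjusted p = 0.0129, Rock1 one of 0.00488 and Ppp1r12a one of 0.0335. Activating and opposing enzymes were called in the same direction. Rock2 remained above Rock1 in both groups, by 1.55 times in the wound bed and 3.18 times in nonwounded skin.

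Crosslinkers and scaffolds of stress fibres held the most calls, with 7 of 9 tested genes higher and 0 lower. Actn1, the alpha-actinin 1 gene (chromosome 12, 80167542 to 80260371, with the same doubt on the build), stood at 30.3 against 0.902, a 33.6-fold difference (log2 5.07). Actn4, the other non-muscle paralogue, was at 41.3 against 29.6 (0.48, not called). Actn4 thus exceeded Actn1 by 1.36 times in the wound bed and by 32.9 times in nonwounded skin. Synpo, which encodes the actin-bundling protein synaptopodin, rose by 3.55 on the log2 scale (13.3 against 1.14). Palladin, a scaffold that binds alpha-actinin, was represented by 4 isoforms of Palld. The isoform of 663 residues rose from 6.05 to 35.7 (2.56), and the one of 1002 residues stood at 1.95 against 0.193 without a call. The calls of Actn1, Synpo and Palld were at the lowest adjusted p.

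Fscn1, the fascin gene of protrusive bundles that is also high in dendritic cells, rose from 21.5 to 67.0 (log2 1.64). The filamins, which join filaments into nets and couple them to integrins, were higher by smaller factors. The main isoform of Flna rose from 37.8 to 75.3 (0.99) and Flnc, the filamin of muscle, from 10.3 to 18.0 (0.80). Pdlim5, an adaptor with PDZ and LIM domains that binds alpha-actinin, had main isoforms with ratios of opposite sign. Its 591-residue isoform rose from 2.60 to 12.3 (2.24), its 482-residue isoform stood at 6.63 against 11.9 (-0.85), and the sum over 9 isoforms gave 20.7 against 15.2 (0.44). The 591-residue form made up 59.2% of the gene's FPKM in the wound bed against 17.1% in nonwounded skin. With the p-values of the authors, Flna had an adjusted p = 0.00923, Flnc one of 0.0239 and the 482-residue form one of 0.0820, while Fscn1 and the 591-residue form had the lowest value. Pdlim7, a relative, summed to 25.2 against 18.7 (0.43) with no call, and Pdlim3 and Synpo2, muscle Z-disc genes, stayed below 1. One of the windows listed for Flnc (chr6:29432903-29433202, plus strand) holds a CArG variant that begins 163 bases before the start, and it is printed as the scaffold gene called higher that has one.
Flnc: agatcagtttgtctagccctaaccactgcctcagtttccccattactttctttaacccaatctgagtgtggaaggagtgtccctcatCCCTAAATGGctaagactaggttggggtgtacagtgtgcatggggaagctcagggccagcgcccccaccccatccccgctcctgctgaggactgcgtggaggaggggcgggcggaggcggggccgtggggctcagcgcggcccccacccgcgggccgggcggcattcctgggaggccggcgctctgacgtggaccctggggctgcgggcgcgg

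**Figure D4:**
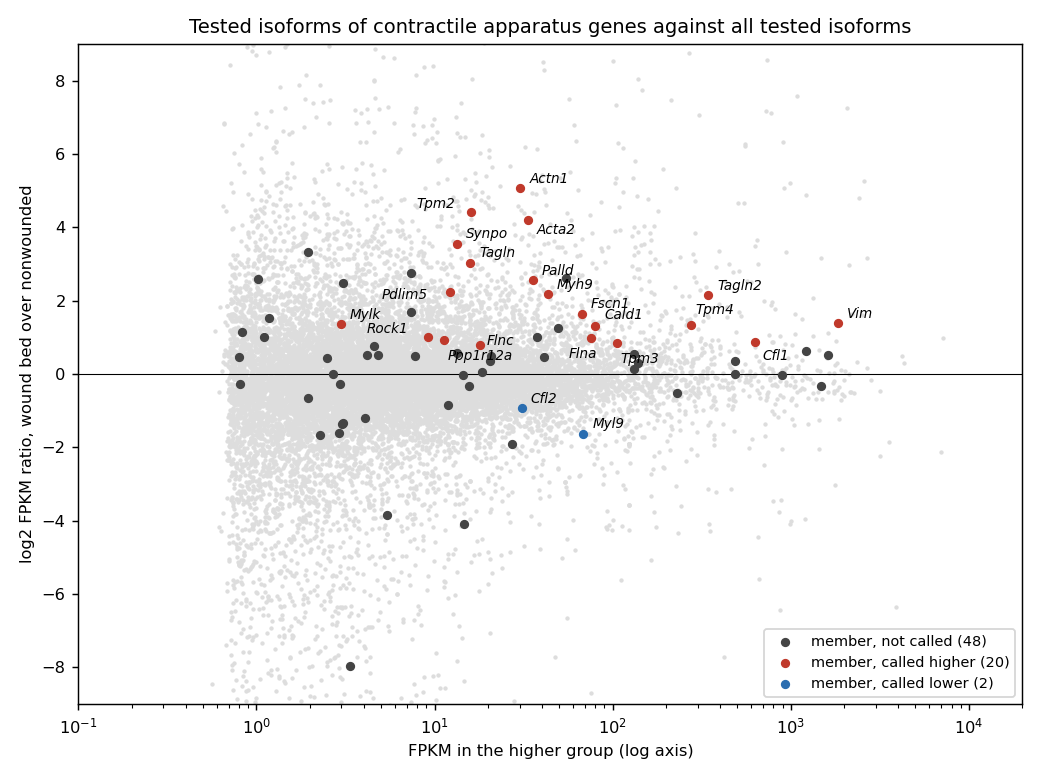
Log2 ratio of wound bed over nonwounded FPKM (vertical axis) against the FPKM in the higher group (horizontal log axis) for tested isoforms, 1 point each, all isoforms in pale grey and those of contractile genes in red (20 called higher), blue (2 called lower) and dark grey (48 not called). Actn1 at 5.07 and Tpm2 at 4.42 lie highest among the named points and Myl9 at -1.63 lowest; isoforms listed at 0 or beyond the axes are not drawn.

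Of the intermediate filament genes, Vim, the vimentin gene of mesenchymal cells and leukocytes, rose from 710 to 1849 (log2 1.38) and was the most abundant gene of the set in the wound bed. Des, the desmin gene of muscle, stood at 1.18 against 3.03 (-1.36) without a call. The p-values of the authors gave an adjusted p = 0.0166 for Vim and 0.107 for Des. The skeletal muscle markers given above were lower in the wound bed in the same columns, and their part in the values of Des was not tested.

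Genes that control filament turnover were abundant and mostly not called. The monomer-binding thymosins stood at 1626 against 1138 for Tmsb4x (log2 0.51) and at a sum of 1180 against 1519 for Tmsb10 (-0.36), and Pfn1, the profilin gene that feeds monomers to growing ends, at 488 against 384 (0.35). The cofilins, which sever filaments, were called in opposite directions. Cfl1, the non-muscle cofilin gene, rose from 342 to 632 (0.88), and Cfl2, the muscle-type gene, fell from 30.9 to 16.3 (-0.93), so that the ratio of Cfl1 to Cfl2 was 38.8 in the wound bed against 11.1 in nonwounded skin. The p-values of the authors gave Cfl1 an adjusted p = 0.0174 and Cfl2 one of 0.00239. Cofilin, profilin and thymosin genes have processed copies in the genome, which leaves their levels uncertain, and the skeletal muscle markers were lower in the wound bed beside Cfl2, where their part was not tested. The formin genes nucleate unbranched filaments. Diap1 summed to 14.0 against 14.4 (-0.04), with its main isoform at 13.3 against 8.96 and another at 0.376 against 5.38, neither called. Under the older symbols outside the name rule, Diap3 was called at 3.28 against 0.942 (1.80, with an adjusted p = 0.0467 from the p-values of the authors) and Diap2 at 2.57 against 1.82 without a call.

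**Figure D5:**
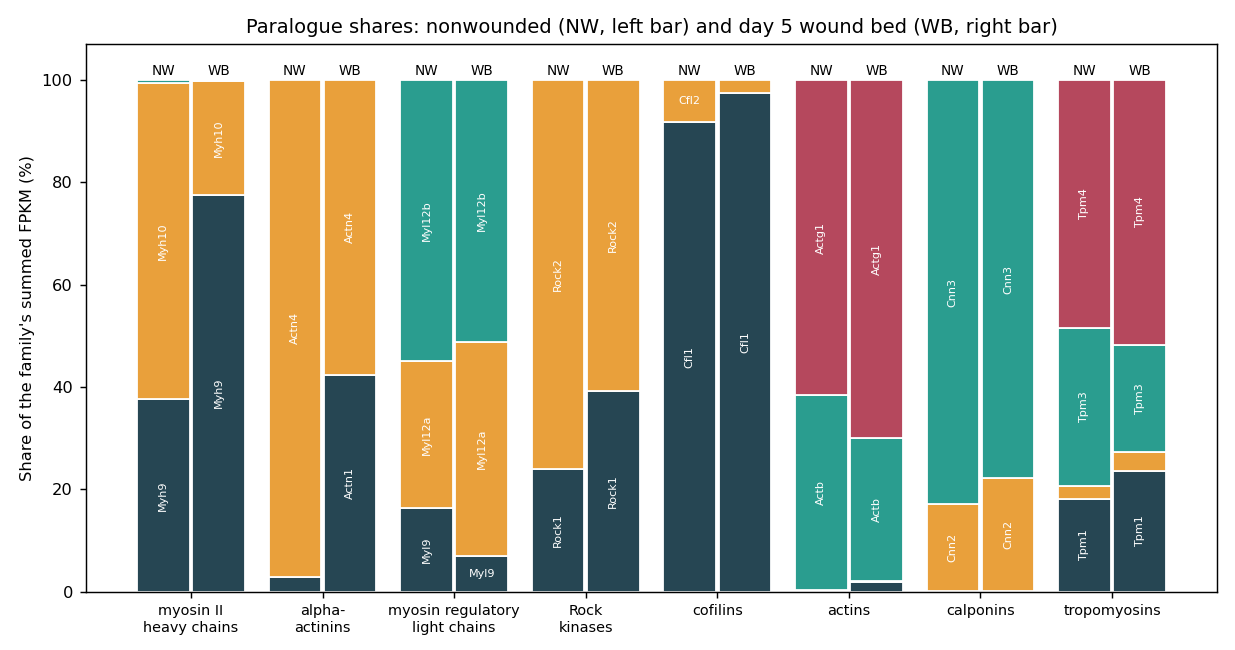
Share of each family's summed FPKM (vertical axis, percent) held by each paralogue, for 8 families, with the nonwounded bar (NW) on the left and the day 5 wound bed bar (WB) on the right; thin segments carry no name. The share of Myh9 is 37.6% and 77.6%, that of Actn1 2.95% and 42.4%, and that of Myl9 16.3% and 7.01%, while the tropomyosin genes keep the order Tpm4 first.

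The most abundant paralogue differed between the 2 groups for the heavy chains and for the thymosins, where Tmsb4x held 57.9% in the wound bed against 42.8% in nonwounded skin. The groups also differed in how far the minor paralogue lagged for alpha-actinin, cofilin and the Rock kinases. Such shares rest on 1 deposited value per group and the difference between paralogues was not tested. The families themselves differed in the factor between the groups, from 4.52 for the transgelins, 2.38 for the tropomyosins, 2.34 for the alpha-actinins and 2.20 for the myosin heavy chains to 1.37 for the actins, 1.06 for the thymosins and 0.753 for the regulatory light chains.

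Genes of the surrounding actin pathway were grouped in 3 lists. All calls in them rest on the p-values of the authors. Across their 115 genes, 17 of 160 tested isoforms were called higher (10.6%) and 4 lower (2.50%), to be read against the same 5.66% and 7.25%, and the median of 102 gene sums was 0.24. In the list for the Arp2/3 complex, which nucleates branched filaments, and for capping and severing, 5 of 43 isoforms were higher and 1 was lower. Wdr1, a cofactor of cofilin, rose by 1.04 on the log2 scale (68.6 against 33.3), Cttn, the cortactin gene, by 0.88 (70.4 against 38.2) and the Arp2/3 subunit gene Arpc1b by 0.86 (142 against 78.1), while the profilin gene Pfn2 fell by 1.06 (7.70 against 16.0). Gsn, the gelsolin gene, was chosen for mention after its values were seen. It summed to 789 against 3775 (-2.26) with no called isoform, beside a summed FPKM of the whole list of 2542 against 5164. The lower total of the list comes from Gsn, and the other genes together were higher in the wound bed. The median of 30 gene sums in the list was 0.18 on the log2 scale.

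In the list of serum response factor cofactors and other actin-linked genes 8 of 58 isoforms were higher and 1 was lower. Fhl3, a LIM domain gene, rose by 2.75 on the log2 scale (7.64 against 1.14), Ezr, the ezrin gene that links actin to the membrane, by 2.57 (9.56 against 1.61) and Csrp1, a LIM domain gene of smooth muscle, by 2.45 (98.8 against 18.0). Vcl, the vinculin gene of adhesion sites, also rose (26.2 against 10.5), as did Lcp1, a leukocyte plastin gene (19.5 against 4.03), which moved with the macrophage markers given above. Tgfb1i1, an adhesion adaptor gene known as Hic-5, fell by 0.91 (6.34 against 11.9).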

How the data were processed

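RNA of sorted dermal APs was made into TruSeq mRNA libraries, per the labels' protocols. TopHat2 2.0.2 and Cuffdiff 2.0.2 are named with the build mm9, per the submitters' processing notes. The authors deposited 1 FPKM per isoform and group, pooled over 6 nonwounded and 2 wound bed samples, and a Cuffdiff p-value. Locus edges lay within 100 bases of GRCm38 genes for 93.3% of 18542 loci, so the build is uncertain. Value columns of single samples left aside numbered 0. No count test was possible, depth is unknown and no interval is given.

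The deposited p-values were adjusted (Benjamini-Hochberg) over 17775 tested isoforms; these calls and the authors' own significance marks were the same in 34535 of 34535 isoforms, and called isoforms had a p of at most 0.00645 in the authors' deposited table. Fold changes were computed from FPKM without a pseudocount, with gene sums over isoforms without a failed or overloaded status. Isoforms were matched by RefSeq accession to GENCODE M21 coding lengths, split at 260 residues, and genes by symbol to RefSeq promoter windows, 2 of them under newer symbols. Windows of 7 genes were not used here.

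The members, the 3 related lists and the 6 marker lists were chosen with earlier results of these data known. Values are given in full for genes with a called isoform, for sums changed by at least 1 on the log2 scale, and where isoform and sum disagree; of the related lists up to 3 called genes per direction with an FPKM of at least 5. Others, such as Vcl, Lcp1, Elk3, Elk4, Elk1 and Gsn and the marker genes, were named after their values were seen. One of the related lists enters the joint counts and is not reported here on its own. The adjustment was tested on simulated data. The computations used Python 3.11.15, numpy 2.4.6, pandas 2.3.3 and matplotlib 3.10.9.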

Additional observations from a re-analysis of the deposited data

How the results depend on the processing

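The counts of 20 isoforms higher and 2 lower, in 20 and 2 genes, were recomputed under 7 settings. At an adjusted p under 0.01, 13 isoforms in 13 genes were higher, with Tpm2, Tpm3, Mylk, Flnc, Vim, Cfl1 and Ppp1r12a no longer called, and related isoforms gave 10 higher and 2 lower. At an adjusted p under 0.1, 4 isoforms in 4 genes were lower and 11 related isoforms were lower. Added among the 4 were the 482-residue form of Pdlim5 and a Tmsb10 isoform at 7.26 against 27.4. Pdlim5, with its 591-residue form called higher, then had isoforms called in opposite directions. Where calls also had to reach 1 on the log2 scale, 15 isoforms in 15 genes were higher. Tpm3, Flna, Flnc, Cfl1 and Ppp1r12a were then no longer called, and 1 isoform in 1 gene was lower, since Cfl2 dropped out. The other counts moved by less than 1.5 times, and the median of the gene sums by less than 1.5-fold, under each of its settings. For genes called under the main setting no log2 ratio changed sign. The p thresholds, the pseudocount and the small shift of the centring could not have changed a sign. The highest isoform in place of the sum moved Tpm1 to 2.62, Tpm2 to 4.42, Pdlim5 to 2.24 and Diap1 to 0.57, and a pseudocount of 1 moved Acta2 to 3.62, Actn1 to 4.04 and Synpo to 2.71; the nonwounded sums of these 3 genes lie between 0.902 and 1.81, close to the added 1. No paired analysis was possible because the table holds 1 pooled value per group, and leaving out each replicate was not run for the same reason. The unknown depth and the 2 wound bed samples limit what could be called.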

Other observations

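In several genes an isoform other than the main one stood far apart between the groups without a call. The sum of each of these genes differed by less than 1 on the log2 scale. These isoforms were picked for mention after their values were seen. A Tpm3 isoform of 285 residues was at an FPKM of 0.0134 in wounds against 3.34 without a wound, with an adjusted p = 0.543 from the p-values of the authors. A minor Tmsb10 isoform was at 0.857 against 14.7 (log2 -4.10) beside the main one at 1172 against 1477, and all 3 Tmsb10 isoforms encode the same 44 residues. The Diap1 isoform of 1255 residues was at 0.376 against 5.38 (-3.84), and the one of 1264 residues at 13.3 against 8.96. The 1255-residue form held 2.68% of the gene's FPKM in the wound bed against 37.4% in nonwounded skin. The p-values of the authors gave an adjusted p = 0.282 for that Tmsb10 isoform and 0.226 for the shorter Diap1 form.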
